A study of Mus musculus with 11 samples.

Results

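The genes described here encode the subunits of the oxidative phosphorylation machinery, measured by RNA sequencing of the colon of germ-free and humanized mice. They were taken from the gene count table by name: the Nduf genes of complex I, Sdha to Sdhd of complex II, the Uqcr genes and Cyc1 of complex III, Cycs, the Cox4 to Cox8 genes of complex IV, the Atp5 genes of complex V, and the protein-coding genes of mitochondrial DNA. Of 43346 rows in the table, 102 carried such a name, 89 of them nuclear and 13 mitochondrial, and 82 reached 10 reads in at least 5 of the 11 mice. All 82 were nuclear, and all 82 also passed the filter on low counts used for the tests. The mice were male Swiss Webster animals of 8 to 10 weeks, housed singly. The 5 germ-free mice carried no microbiota. The 6 humanized mice were germ-free animals that had received 300 µL of human stool suspension by gavage at 4 to 5 weeks of age. The stool came from 1 donor, so the humanized group stands for 1 human microbiota only. Counted reads per mouse ranged from 49097005 to 64148538 in germ-free mice and from 39125290 to 54219854 in humanized mice.

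Oxidative phosphorylation couples the oxidation of NADH and succinate to the synthesis of ATP at the inner mitochondrial membrane. Complexes I and II pass electrons to coenzyme Q, complex III passes them to cytochrome c, complex IV reduces oxygen, and complex V uses the resulting proton gradient to make ATP. Complexes I, III, IV and V are built from both nuclear and mitochondrial gene products, whereas complex II is wholly nuclear. Colonocytes are known for meeting much of their energy demand by oxidizing butyrate, a product of bacterial fermentation.

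Some sequences are shown because they bear on what can be read from the counts or because some of the members share them. The mitochondrial genes, which have close copies in nuclear DNA, are the first case. A stretch of mt-Co1 is given with the same stretch of its copies in nuclear DNA, with capitals at the positions where the sequences are not all alike (GENCODE M21, build GRCm38, 5′ to 3′ in the direction of the gene). The mt-Co1 stretch lies at chrM:6390-6432 on the plus strand, that of Gm29216 at chr1:24616146-24616188 on the minus strand, and that of Gm13340 at chr2:22588543-22588585 on the minus strand. Each copy differed from mt-Co1 at 1 of the 43 bases. Over the whole alignment Gm29216 had 1 mismatch in 483 bases and Gm13340 had 37 in 1545 bases.
mt-Co1: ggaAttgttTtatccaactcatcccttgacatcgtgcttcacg
Gm29216: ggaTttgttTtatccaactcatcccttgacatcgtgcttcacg
Gm13340: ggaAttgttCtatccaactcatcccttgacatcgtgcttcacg

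The promoters of the nuclear members are the second case. Nuclear respiratory factor 1 (NRF1), ETS factors such as GABPA, the estrogen-related receptor ESRRA and YY1 are known regulators of nuclear mitochondrial genes. RefSeq promoters (GRCm38.p6, 250 bases before to 50 after the start) were matched for 68 of the 82 members. The NRF1 core GCGCATGC, read on both strands, was present in 11 of the 68 (16.2%), against 3.05% of all 27025 genes with a promoter. The YY1 motif AAGATGGC was present in 11 of 68 (16.2%), against 3.19% of all genes. The ETS motif CCGGAAGT was present in 5 of 68 (7.35%), against 4.31%, and the ESRRA motif TCAAGGTCA in 2 of 68 (2.94%), against 0.466%. The windows below are upstream of the start in members that are described with values further on, and capitals mark the NRF1 core on either strand. In Atp5g2 and Cox6a1 a match on each strand overlaps into 1 run. They lie at chr6:50566602-50566649 (Cycs), chr9:44920955-44920992 (Atp5l), chr5:115349091-115349140 (Cox6a1) and chr15:102671060-102671109 (Atp5g2), all on the minus strand.
Cycs: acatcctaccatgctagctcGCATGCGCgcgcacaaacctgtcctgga
Atp5l: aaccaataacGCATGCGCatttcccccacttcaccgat
Cox6a1: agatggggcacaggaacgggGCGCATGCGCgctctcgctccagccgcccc
Atp5g2: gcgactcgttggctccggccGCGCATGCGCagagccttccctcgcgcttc

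Members with and without a motif had similar fold changes. Of the 4 genes shown, Cycs, Atp5l and Cox6a1 were higher in humanized mice and Atp5g2 did not pass the main test (edgeR's exact test). Cox6a1 had a log2 fold change of 0.42 in the main test (FDR = 0.00215) and was not called by edgeR's quasi-likelihood test (FDR = 0.0131). The median log2 fold change (LFC, humanized over germ-free) was 0.36 in the 28 members with at least 1 of the 4 motifs and 0.33 in the 40 members without one. These are descriptions of letters in a window and not of binding.

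Nuclear genes of oxidative phosphorylation were mostly higher in humanized mice, in nearly all members of complexes II, III and V, most of complex IV and 16 of 35 in complex I. In edgeR's exact test at an adjusted p (FDR) below 0.01, 56 of the 82 members rose, 2 fell and 24 did not pass, whereas 9.2% of all 19863 genes tested rose and 10.1% fell. The LFC was above 0 for 79 of 82 members, against 51.2% of all genes. The differences were small and of similar size: the members that rose lay between LFC 0.29 and 0.69, and the median over all 82 was 0.35, beside 0.01 over all genes tested. In 46 members every humanized mouse lay above every germ-free mouse (8.67% of all genes tested), and in 1 member every humanized mouse lay below (9.73%). At the stricter FDR below 0.001, 35 members rose (5.55% of all genes). The quasi-likelihood test of edgeR, which allows for the uncertainty of each gene's spread, called 40 of the same 56 genes higher (7.05% of all genes) and the same 2 lower. In bulk tissue, fewer cells of a type and less RNA per cell cannot be told apart.

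**Figure D1:**
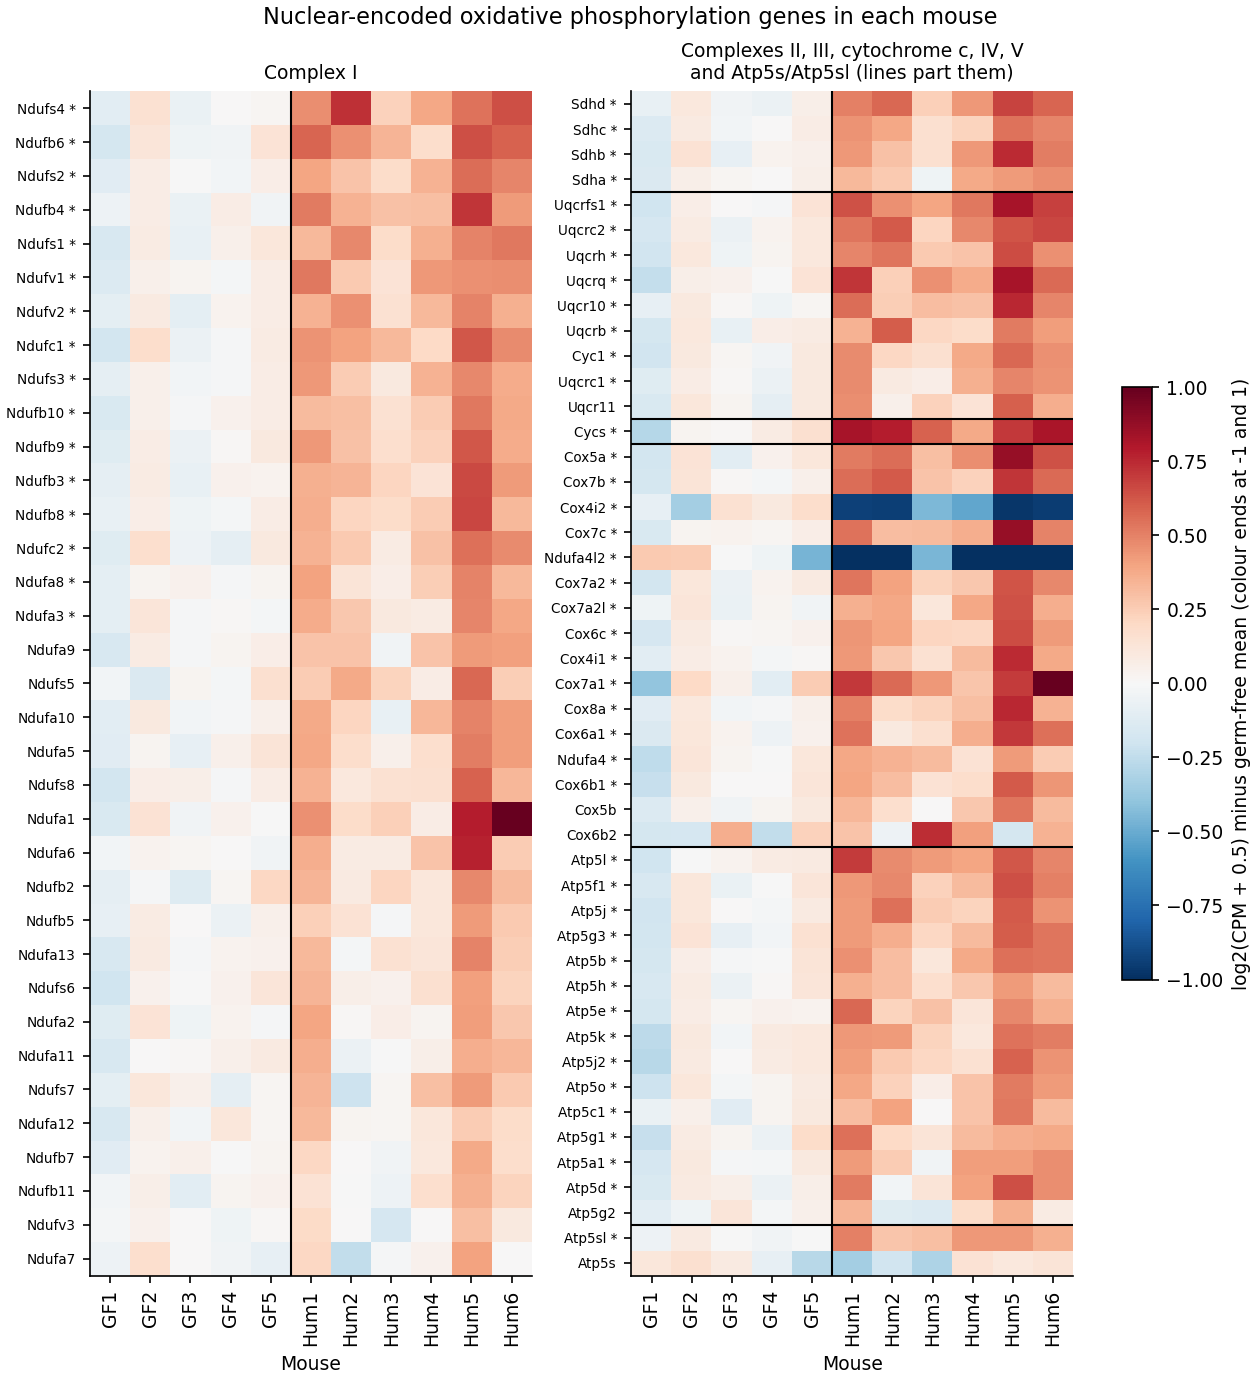
Heat map of the 82 nuclear members (rows, by complex and within it by FDR) in the 5 germ-free (GF) and 6 humanized (Hum) mice (columns). Colour gives log2(CPM + 0.5) minus the germ-free mean, and an asterisk marks FDR below 0.01 in the exact test. Colours end at -1 and 1; of the 82 rows, 46 lie higher in every humanized mouse than in any germ-free mouse, and Cox4i2 and Ndufa4l2 are blue in the humanized mice.

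The shift was present in every humanized mouse but not to the same extent. The median over the 82 members, as log2 over the germ-free mean, was -0.15, 0.09, -0.01, 0.00 and 0.07 in germ-free mice 1 to 5 and 0.41, 0.26, 0.16, 0.27, 0.54 and 0.42 in humanized mice 1 to 6. Germ-free mouse 1 was lowest and humanized mouse 5 highest, and the groups did not overlap. The mice of the humanized group also differed more from each other: the median coefficient of variation of a member was 11.7% there and 7.12% in the germ-free group, and it was larger in the humanized group for 79 of 82 members. Over all genes tested the median was also larger in the humanized group, at 16.5% against 10.4%, so this was not particular to the members.

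The size of the shift depended on how libraries were scaled to each other. With the trimmed mean of M values (TMM) used here the members' median LFC was 0.35, and with upper-quartile scaling it was 0.31. Scaling to total counts or to the summed epithelial markers lowered the LFC of all genes to a median of -0.18, and that of the members to 0.16 in both cases. There, 15 members (total counts) and 5 members (epithelial markers) were called higher, against 3.89% and 2.82% of all genes, and 18.2% and 10.8% of all genes were called lower. By complex, I to V, the members called higher were 2, 1, 5, 4 and 2 under total counts and 0, 0, 3, 1 and 0 under epithelial scaling. The groups' per-mouse medians overlapped under both of those scalings. Cycs, Uqcrc2, Cox5a, Uqcrq and Uqcrfs1 were the 5 genes called higher under epithelial scaling, and all 5 were among the 15 under total counts. Cox4i2 and Ndufa4l2 were called lower under each of the scalings. As a share of all counted reads, the 82 members took 1.23, 1.38, 1.25, 1.30 and 1.41% in germ-free mice (1.31 ± 0.0821, SD, n = 5) and 1.47, 1.43, 1.39, 1.52, 1.61 and 1.57% in humanized mice (1.497 ± 0.0824, SD, n = 6). Humanized mouse 3, at 1.39%, lay below germ-free mouse 5, at 1.41%.

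**Figure D2:**
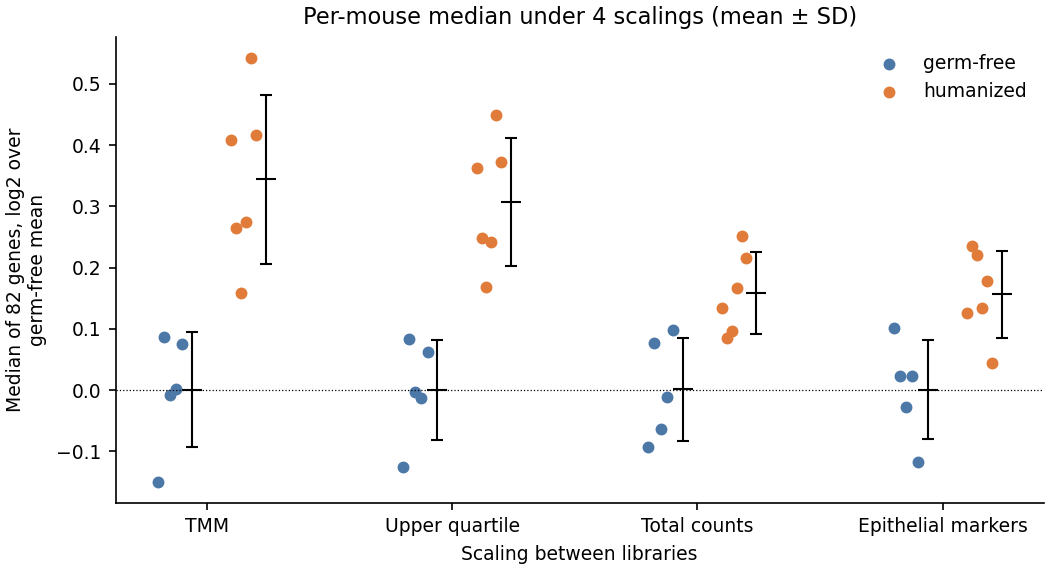
Median of the 82 members in each mouse (points), as log2 over the germ-free mean, under 4 scalings between libraries, with mean ± SD of each group in black. The groups are apart under TMM and upper-quartile scaling and overlap under total counts and epithelial markers.

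Markers of other cell types moved between the groups at the same time. Epithelial markers were abundant in all mice, with sums of 7765 to 10581 CPM (counts scaled to library size) in germ-free and 8862 to 11991 CPM in humanized mice, and 1 of the 11 markers rose (median LFC 0.18). All 9 smooth muscle markers fell (median LFC -1.93, sums of 602 to 1826 CPM against 80.1 to 641 CPM), as did all 7 enteric neuron and glia markers (median LFC -2.00), all 6 pericyte markers and 5 of 6 fibroblast markers. Of the 5 endothelial markers 0 were called, but their median LFC was -1.003 and their sums did not overlap, at 88.6 to 105 CPM in germ-free and 11.1 to 81.8 CPM in humanized mice. Of the 3 plasma cell markers tested 2 rose, as did 2 of 6 leukocyte markers. The part of these changes in the members' shift was not tested.

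Complex I, the NADH dehydrogenase, had the smallest shift of the 5 complexes. Of 35 members, 16 rose and 19 did not pass, and under TMM scaling all 35 had an LFC above 0, with a median of 0.30. Among the 7 core subunits, which carry the flavin and the iron-sulfur clusters, 5 rose (median LFC 0.36), and among the 28 supernumerary subunits 11 rose (median LFC 0.29). Ndufs4, a supernumerary subunit needed for the stability of the NADH-oxidizing arm, was at 31.5, 37.8, 32.3, 34.0 and 34.3 RPKM (reads scaled to gene length and TMM-adjusted library size) in germ-free mice and at 46.9, 56.5, 39.9, 44.4, 49.4 and 53.3 RPKM in humanized mice. Every humanized mouse was above every germ-free mouse, and the LFC was 0.51 (SE 0.09, FDR = 3.89e-06). Ndufb9, the complex I member with the highest level, rose from 228 ± 14.5 RPKM (SD, n = 5) to 292 ± 34.0 RPKM (SD, n = 6), with an LFC of 0.36 (FDR = 0.000861).

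Other complex I genes differed little between the groups. Ndufv3 and Ndufa7, chosen after their values were seen as the lowest 2 LFC in the complex, had an LFC of 0.08 each (FDR = 0.543 and FDR = 0.65). Ndufv3, a small subunit beside the flavoprotein, was at 24.8 to 26.3 RPKM in germ-free mice and at 22.7 to 31.7 RPKM in humanized mice, so the germ-free range lay within the humanized range. At the looser FDR below 0.05, 24 of 35 complex I members were higher (all genes, 14%). Ndufa1, also chosen after its values were seen, had the largest LFC of the complex, 0.56 (SE 0.19), yet did not pass (FDR = 0.016). Its levels were 129, 159, 139.9, 147 and 143 RPKM in germ-free mice and 197, 163, 169.9, 151, 248 and 345 RPKM in humanized mice. Humanized mice 5 and 6 were far above the rest, whereas humanized mouse 4 was within the germ-free range.

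Complex II, succinate dehydrogenase, links the citric acid cycle to the chain. All 4 of its genes rose, with a median LFC of 0.41. Sdhd, a membrane anchor, was at 153, 174, 157, 155 and 168 RPKM in germ-free mice and at 228, 240.3, 189.9, 217, 257 and 241 RPKM in humanized mice. All humanized mice were higher than all germ-free mice, with an LFC of 0.51 (SE 0.08, FDR = 3.28e-07). Sdha, the flavoprotein with the catalytic site, named after its values were seen, had the smallest LFC of the 4, 0.31 (SE 0.09, FDR = 0.00722), and humanized mouse 3, at 77.96 RPKM, was within the germ-free range of 72.4 to 83.6 RPKM. The quasi-likelihood test did not call it (FDR = 0.0197).

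Complex III, the cytochrome bc1 complex, had the largest median LFC of complexes I to V, 0.45, and 8 of its 9 members rose. By the per-mouse medians, averaged over the humanized mice, complex II was slightly higher, at 0.41 against 0.40. Uqcrfs1, the Rieske iron-sulfur protein, was at 124, 149.7, 143, 141 and 157 RPKM in germ-free mice and at 222, 195, 188, 205, 253 and 229 RPKM in humanized mice. The lowest humanized mouse was well above the highest germ-free mouse, and the LFC was 0.59 (SE 0.09, FDR = 4.66e-08). Uqcrc2, a core protein, and Uqcrq, a small subunit near the cytochrome b, had an LFC of 0.53 and 0.54 (FDR = 8.97e-07 and FDR = 3.77e-05), also without overlap. Cyc1, cytochrome c1 and the highest member of the complex, rose from 190.1 ± 15.3 RPKM (SD, n = 5) to 247 ± 27.5 RPKM (SD, n = 6), with an LFC of 0.38 (FDR = 0.000677).

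Cycs, the somatic cytochrome c that carries electrons from complex III to complex IV, had the largest rise of all 82 members. Its levels were 13.2, 16.5, 16.3, 17.1 and 18.1 RPKM in germ-free mice and 28.6, 28.0, 24.3, 21.1, 26.5 and 28.5 RPKM in humanized mice. Humanized mouse 4 was the lowest of its group and still above germ-free mouse 5, and the LFC was 0.69 (SE 0.10, FDR = 4.33e-09). The row Gm10053, a copy of Cycs on chromosome 19 with 1 mismatch over 946 aligned bases, held 14629 reads beside 39954 on Cycs, so reads of the 2 rows are uncertain.

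Complex IV, cytochrome c oxidase, held both the most abundant member and the only 2 that fell. Of its 16 nuclear members, 12 rose, 2 fell and 2 did not pass (median LFC 0.39). Ndufa4 and Ndufa4l2 are counted here, because the Ndufa4 protein is known as a subunit of complex IV. Cox8a, the highest of all 82 members, was at 559 to 653 RPKM in germ-free and at 687 to 1021 RPKM in humanized mice, an LFC of 0.40 (SE 0.10, FDR = 0.00162) that the quasi-likelihood test did not call (FDR = 0.0111). Cox5a, a subunit on the matrix side, was at 297, 372, 313, 348 and 366 RPKM in germ-free mice and at 485, 497, 416, 466, 619 and 525 RPKM in humanized mice. The groups were apart, with an LFC of 0.56 (SE 0.10, FDR = 4.02e-06). Cox7b, a small membrane subunit, had an LFC of 0.50 (SE 0.09, FDR = 1.84e-05), again without overlap.

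Complex V, ATP synthase, had 14 of 15 members that rose (median LFC 0.35). The LFC ranged from 0.13 in Atp5g2, the member that did not pass (FDR = 0.407), to 0.52 in Atp5l. Those that rose included all 5 of the catalytic F1 part and 9 of 10 of the membrane part and stalks. Atp5l, subunit g of the membrane part, was at 60.5, 69.4, 71.4, 73.9 and 74.1 RPKM in germ-free mice and at 114, 97.0, 94.0, 92.0, 108 and 98.1 RPKM in humanized mice. The groups did not overlap, and the LFC was 0.52 (SE 0.07, FDR = 6.31e-08). Reads of Atp5l are uncertain: the pseudogene Atp5l2-ps differed by 2 mismatches from Atp5l over 312 bases and by 2 from Gm10221 over 309 bases, and Gm10221 held 11862 reads beside 24146 on Atp5l. Atp5a1, the alpha subunit and the highest member of the complex, rose by an LFC of 0.33 (FDR = 0.00654), with humanized mouse 3, at 326 RPKM, below 4 of the 5 germ-free mice, and was not called by the quasi-likelihood test (FDR = 0.0237). The count of 14 rested on calls close to the threshold: it was 7 in the quasi-likelihood test, and 6 without germ-free mouse 1, 7 without germ-free mouse 3, 8 without humanized mouse 1, 8 without humanized mouse 6, 9 without germ-free mouse 4 and 9 without humanized mouse 4. Atp5sl and Atp5s match the names but are not subunits of the complex. Atp5sl rose from 8.84 ± 0.347 RPKM (SD, n = 5) to 11.6 ± 0.728 RPKM (SD, n = 6), with an LFC of 0.39 (SE 0.06, FDR = 9.34e-06), and Atp5s had an LFC of -0.07.

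**Figure D3:**
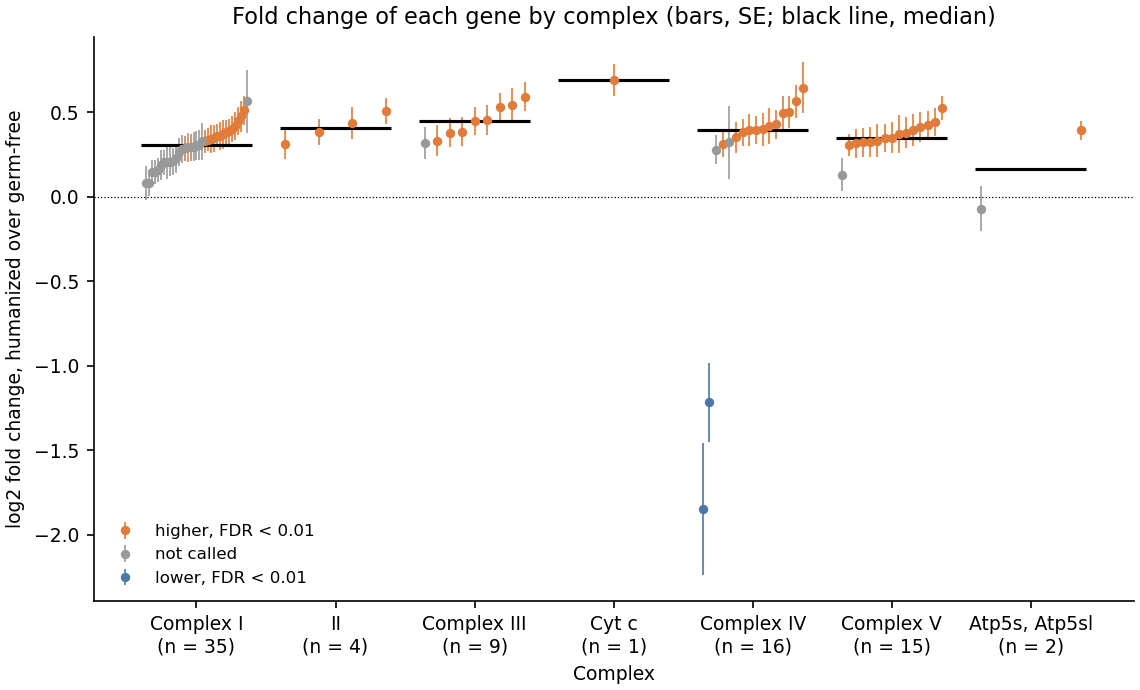
LFC of each member (points, with SE) by complex, with the median as a black line. Medians of complexes I to V lie between 0.30 and 0.45, cytochrome c is at 0.69, and the blue points are Cox4i2 at -1.22 and Ndufa4l2 at -1.85.

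Differences between complexes within a mouse do not depend on the scaling of the libraries. The median of complex II minus that of complex I, on the log2 scale, ranged from -0.03 to 0.03 in germ-free mice and from 0.06 to 0.23 in humanized mice. The same difference for complex IV ranged from -0.05 to 0.04 against 0.04 to 0.15, and for complex V from -0.07 to 0.04 against 0.05 to 0.11. In these 3 comparisons every humanized mouse was above every germ-free mouse, whereas for complex III humanized mouse 2 overlapped the germ-free group. Relative to the median of all members in the same mouse, 5 genes were higher in all humanized mice, namely Cycs, Uqcrfs1, Cox5a, Uqcrc2 and Sdhd. Another 8 were lower in all humanized mice: Cox4i2, Ndufa4l2 and the complex I genes Ndufs6, Ndufb5, Ndufa12, Ndufb7, Ndufb11 and Ndufv3. The remaining 69 overlapped. On the same scale 1.49% of all genes tested were higher and 32.5% lower in all humanized mice, a background set by the members' own shift, since their median is the reference. The 6 complex I genes were singled out after their values were seen, and reads of 2 of them are uncertain. Ndufb5 overlaps the gene Mrpl47, and Ndufa12 has a copy, Gm15920, with 1 mismatch over 221 bases and 4200 reads beside 18907. The closest copies of Ndufs6 and Ndufb11 held 88 and 93 reads over all mice.

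The 2 genes that fell are tissue-restricted isoforms, and their common counterparts rose in the main test but were not called under total counts or epithelial scaling. Cox4i2 encodes an isoform of subunit 4 known from lung and vascular mural cells, and Cox4i1 is the form found in most cells. Cox4i2 was at 1.63, 1.26, 2.04, 1.93 and 2.07 RPKM in germ-free mice and at 0.622, 0.615, 1.12, 1.04, 0.588 and 0.608 RPKM in humanized mice. All humanized mice were lower, with an LFC of -1.22 (SE 0.23, FDR = 3.34e-05), on 52 to 114 reads per germ-free and 18 to 42 reads per humanized mouse. Cox4i1, at 315 ± 14.7 RPKM (SD, n = 5) and 414 ± 61.0 RPKM (SD, n = 6), had an LFC of 0.39 (FDR = 0.00101).

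Ndufa4l2, a relative of Ndufa4 that hypoxia is known to induce, showed the same pattern at a similarly low level. It was at 1.88, 1.87, 1.48, 1.43 and 0.939 RPKM in germ-free mice and at 0.482, 0.224, 0.945, 0.375, 0.132 and 0.353 RPKM in humanized mice. Humanized mouse 3 was level with germ-free mouse 5 and the other mice were apart, with an LFC of -1.85 (SE 0.39, FDR = 6.51e-05), on as few as 6 reads in a mouse. Ndufa4 rose by an LFC of 0.31 (FDR = 0.00267) and was just short of the threshold in the quasi-likelihood test (FDR = 0.0101). Both low isoforms are known from pericytes, whose markers fell 6 of 6 here, with a median LFC of -1.67 and sums of 198 to 329.7 CPM in germ-free and 23.5 to 107 CPM in humanized mice. The part of these cells in the fall of Cox4i2 and Ndufa4l2 was not tested.

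Ratios between isoforms within a mouse were tested for 5 pairs by an exact permutation test, two-sided, of 5 against 6 mice (smallest possible p = 0.00216), with Benjamini-Hochberg adjustment. The log2 ratio of Cox4i2 to Cox4i1 fell by 1.5, from -8.36 ± 0.299 (SD, n = 5) to -9.86 ± 0.523 (SD, n = 6), with an exact adjusted p = 0.0108. That of Ndufa4l2 to Ndufa4 fell by 2.07, with the same exact adjusted p = 0.0108, and in both pairs all humanized mice were below all germ-free mice. The ratio of Atp5g1 to Atp5g2, which encode the same mature c subunit of ATP synthase, rose by 0.21 (exact adjusted p = 0.0433). It no longer passed 0.05 without germ-free mouse 1, 3 or 4, or without humanized mouse 1, 2, 3, 4 or 6 (exact adjusted p from 0.0529 to 0.0794), and reads of Atp5g1 are uncertain, since the row Gm10039 matched it with 1 mismatch over 411 bases and held 12194 reads beside 74869. The ratio of Cox7a1, the muscle form, to Cox7a2 rose by 0.21 without passing (exact adjusted p = 0.124), and that of the testis form Cox6b2 to Cox6b1 differed by -0.05 (exact adjusted p = 0.861). Cox7a1 itself rose, from 24.0, 37.0, 33.1, 29.7 and 38.4 RPKM to 53.1, 48.0, 43.7, 39.1, 52.9 and 67.2 RPKM, with an LFC of 0.64 (SE 0.15, FDR = 0.00109). Cox6a2 and Cox8b, muscle forms, had at most 3 and 11 reads in a mouse and were not tested.

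**Figure D4:**
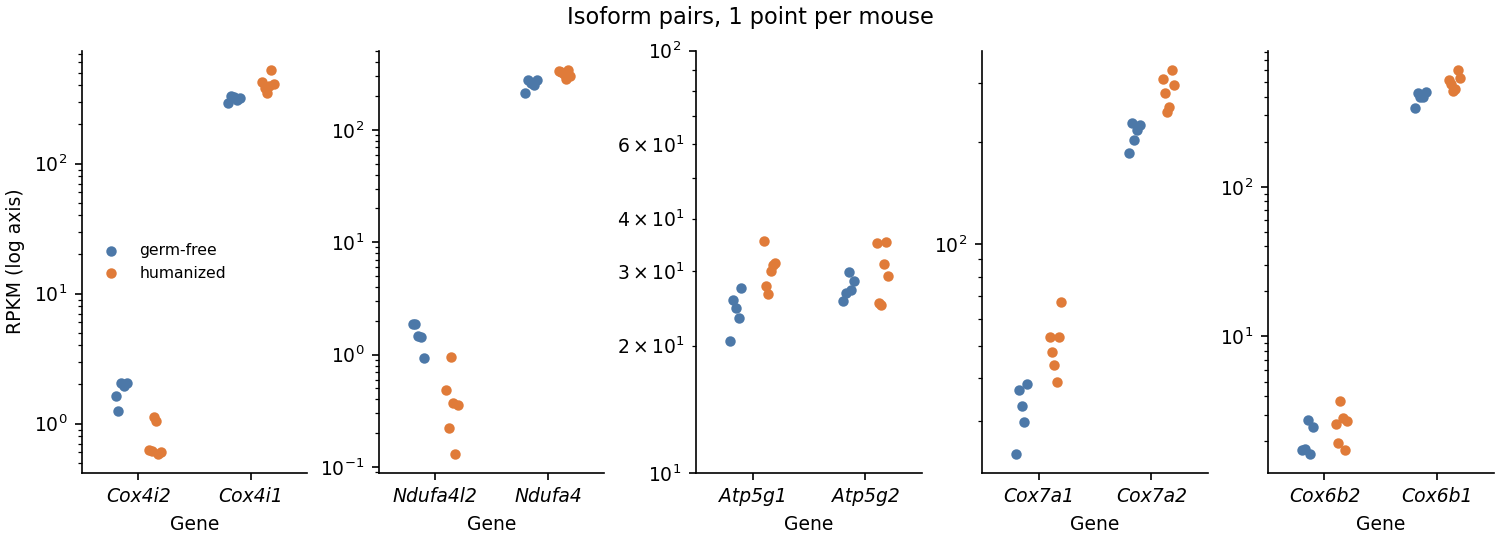
RPKM (log axis, a separate scale in each panel) of both genes of 5 isoform pairs, 1 point per mouse. The tissue-restricted gene is on the left and the common gene on the right. The exception is Atp5g1 (left) and Atp5g2 (right), neither of which is tissue-restricted. Cox4i2 and Ndufa4l2 lie lower in humanized mice, while Cox4i1 and Ndufa4 lie higher.

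The mitochondrial genes themselves could not be compared, because their rows held no reads. All 37 rows of the mitochondrial chromosome, the 13 protein-coding genes and the ribosomal and transfer RNAs among them, are listed at 0 in all 11 mice. These genes are among the most abundant transcripts of most tissues, so the 0 is not read here as their level. Whether the 0 comes from the alignment, the counting or the table was not tested, since no alignments were examined. Nuclear copies, which are stretches of mitochondrial DNA inserted into the chromosomes, did hold reads. Among rows with reads, 11 nuclear copies aligned to 9 of the 13 genes at 95% identity or more over at least 200 bases. The other 4 genes had no copy at these limits. The rows were chosen after the counts were seen. The 7 copies on chromosome 1 had 0 or 1 mismatch over their aligned bases, so by sequence most of their reads cannot be told apart from those of the mitochondrial gene. The 4 copies on chromosomes 2 and 13 had from 16 mismatches (Gm13341, over 684 bases) to 45 (Gm4076, over 954 bases), and whether their reads came from the copy or from mitochondrial RNA was not tested.

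These 11 rows held 5.02, 4.99, 4.29, 4.597 and 4.55% of all counted reads in germ-free mice (4.69 ± 0.313, SD, n = 5) and 5.10, 5.85, 5.11, 5.20, 6.86 and 5.91% in humanized mice (5.67 ± 0.687, SD, n = 6). All humanized mice were above all germ-free mice, by a narrow margin at germ-free mouse 1 and humanized mouse 1. The total is more than that of all 82 nuclear members together. In the exact test 5 of the 11 rows rose, 0 fell and 6 did not pass, beside 9.2% of all genes higher and 10.1% lower.

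The 5 rows that rose were copies of the genes for complex IV subunits, and the number depended on the scaling. Under total counts (3.89% of all genes higher) 4 of the 5 were called, without the mt-Co3 copy (FDR = 0.0268), and under epithelial scaling (2.82%) only the 2 mt-Co1 copies were, at LFC 0.44 (Gm29216) and 0.39 (Gm13340). For mt-Co1, the catalytic subunit of complex IV, Gm29216 was at 7564, 7866, 6764, 7203 and 6815 CPM in germ-free mice and Gm13340 between 9828 and 10914 CPM. In humanized mice Gm29216 was at 10752, 11154, 9610.0, 9934, 15072 and 11754 CPM, above every germ-free mouse, with an LFC of 0.65 (SE 0.13, FDR = 8.02e-07), and Gm13340 had an LFC of 0.60 (SE 0.13, FDR = 4.6e-06). The copies of mt-Co2, which receives electrons from cytochrome c, had an LFC of 0.55 (Gm28661) and 0.50 (Gm13341), and that of mt-Co3 an LFC of 0.47 (Gm28437, FDR = 0.000942). The quasi-likelihood test did not call the mt-Co3 copy (FDR = 0.0192). The copy of mt-Atp6, the proton channel subunit of complex V, had an LFC of 0.30 and did not pass (FDR = 0.0808).

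Copies of the complex I genes did not rise. Those of mt-Nd4 (Gm28439), mt-Nd4l (Gm10222) and mt-Nd3 (Gm28438) had an LFC of -0.08, -0.08 and -0.11, those of mt-Nd2 (Gm13339) and mt-Nd5 (Gm4076) of -0.29 and 0.12, and the groups overlapped in all 5. Under total counts the mt-Nd4l and mt-Nd2 copies were called lower (LFC -0.27 and -0.48), as were 18.2% of all genes. With epithelial scaling the mt-Nd2 copy was called lower (LFC -0.50), as were 10.8% of all genes. Both scalings lowered the median LFC of all genes to -0.18.

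The ratio of the 5 Co copies to the 5 Nd copies is free of the scaling and separated the groups with little spread. As log2 of the reads on the Co rows over those on the Nd rows, it was 2.77, 2.82, 2.76, 2.78 and 2.81 in germ-free mice and 3.46, 3.39, 3.45, 3.34, 3.49 and 3.42 in humanized mice. The difference of 0.63 between the group means compares with an SD of 0.03 (n = 5) and 0.05 (n = 6). With the copies on chromosome 1 alone, 3 Co and 3 Nd rows within 1 inserted stretch, the difference was also 0.63, without overlap. The ratio was formed after the values were seen and was given no test. The GC content of the rows' longest transcript was 38.4% to 40.2% for the Co copies and 33.6% to 41.5% for the Nd copies, and its part in the ratio was not tested.

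**Figure D5:**
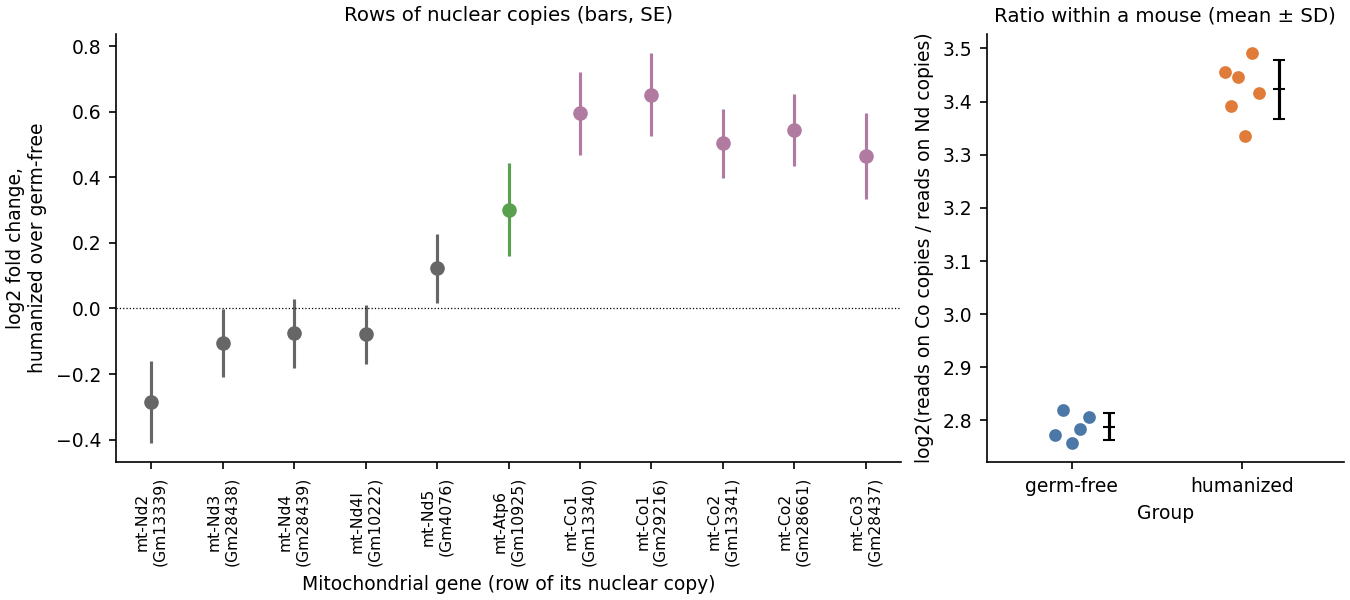
Left, LFC with SE of the 11 rows of nuclear copies, ordered by the mitochondrial gene they match: Nd (grey), Atp6 (green) and Co (purple). Right, log2 of the reads on Co copies over Nd copies in each mouse with mean ± SD: 2.76 to 2.82 in germ-free and 3.34 to 3.49 in humanized mice.

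Other genes around the chain were read from lists, and their counts are set against the 9.2% of all genes tested that rose. Counts under epithelial scaling are set against the 2.82% of all genes called higher there. Of 7 further genes listed as subunits or small proteins bound to the complexes, 5 rose (71.4%) and 0 fell (median LFC 0.54). The number called higher under epithelial scaling was 3. Mtfp1, a mitochondrial fission protein, is among the 7 and did not pass (LFC 0.11, FDR = 0.61). Higd1a, a hypoxia-inducible protein that binds complex IV, was at 62.1 to 78.8 RPKM in germ-free and 115 to 170.3 RPKM in humanized mice, an LFC of 0.97 (SE 0.10, FDR = 3.02e-17). Atpif1, the inhibitor of the ATP synthase, had an LFC of 0.72 (FDR = 1.5e-09). Both were also called higher under epithelial scaling.

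Of 48 factors that assemble the complexes, 12 rose (25%) and 1 fell (median LFC 0.23), against 9.2% of all genes that rose. Under epithelial scaling 0 were called higher (2.82% of all genes) and 1 lower (10.8% of all genes), namely Sco2. Uqcc1, needed for complex III, and Pet100, needed for complex IV, had an LFC of 0.53 and 0.49 (FDR = 7.04e-06 and FDR = 1.78e-05). Sco2, a copper chaperone of complex IV, was the gene that fell, by 0.38 on the log2 scale (FDR = 0.00776), with overlapping groups and no call in the quasi-likelihood test (FDR = 0.0162). It was named after its value was seen.

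Among 23 genes listed as feeding electrons to coenzyme Q or making it, 8 rose (34.8%) and 0 fell (median LFC 0.19). The number called higher under epithelial scaling was 5, against 2.82% of all genes. The 23 include Aox1, an aldehyde oxidase without that role, which did not pass (LFC -1.22, FDR = 0.0105). Etfb, a subunit of the flavoprotein that takes electrons from fatty acid oxidation, rose from 79.4 ± 5.23 RPKM (SD, n = 5) to 117 ± 8.45 RPKM (SD, n = 6), an LFC of 0.56 (FDR = 1.43e-10). Coq5, a methyltransferase of coenzyme Q synthesis, had an LFC of 0.63 (FDR = 6.3e-10). Of 28 genes for the upkeep and expression of mitochondrial DNA, 3 rose and 0 fell (median LFC 0.17), with Pnpt1 at 0.37 and Slirp at 0.23. The quasi-likelihood test did not call Pnpt1 (FDR = 0.011). This share, 10.7%, was close to the 9.2% of all genes, and 0 were called higher under epithelial scaling.

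Of 18 transcriptional regulators, 2 rose and 0 fell (median LFC 0.08), a share of 11.1% and close to the 9.2% of all genes. Under epithelial scaling 1 was called higher (2.82% of all genes), namely Pparg. Pparg, a nuclear receptor of lipid metabolism that is abundant in colonic epithelium, rose from 35.1 ± 2.87 RPKM (SD, n = 5) to 58.8 ± 7.25 RPKM (SD, n = 6), an LFC of 0.75 (FDR = 3.26e-12). Perm1, a regulator first known from muscle, was below 1 RPKM in every mouse, with an LFC of 0.70 (FDR = 0.00676) and overlapping groups, and was not called by the quasi-likelihood test (FDR = 0.0136) or under epithelial scaling (FDR = 0.184). Of 24 genes outside the chain that track mitochondrial mass, 15 rose (62.5%) and 1 fell (median LFC 0.29), against 9.2% of all genes that rose. Under epithelial scaling 0 of them were called higher, against 2.82% of all genes. Chchd3, of the cristae junctions, and Vdac1, the outer membrane channel, had an LFC of 0.49 and 0.42 (FDR = 1.55e-06 and FDR = 1.05e-05). Slc25a4, the ADP/ATP carrier of muscle and heart, was the gene that fell, by 0.97 on the log2 scale (FDR = 0.000104), and was named after its value was seen.

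The base composition of the transcripts was compared with the LFC as a description. Across the 82 members Pearson's r between the GC content of the longest transcript and LFC was -0.30 (Spearman -0.30), and across 19632 genes it was -0.05 (Spearman -0.06). Genes of 1 fit share their libraries and are not independent. The members' median LFC was 0.40, 0.34 and 0.33 from the lowest to the highest GC class of about equal size, and 23 of 28, 17 of 27 and 16 of 27 members rose. Over all genes in the same GC ranges 9.40%, 10.7% and 8.05% rose. After the GC offset the members' medians were 0.39, 0.34 and 0.35. With a GC-dependent offset in each library, the quasi-likelihood test called 43 members higher (7.97% of all genes) and 2 lower (6.76%), and 42 of the 43 were among the 56.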

How the data were processed

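Colonic poly(A) RNA from 5 germ-free and 6 humanized mice was made into libraries with a kit that does not mark strand and read as pairs of 101 bp. Per the labels, the authors aligned the reads with TopHat2 2.1.0 and Bowtie2 2.2.3 to mm10 and counted them per gene with featureCounts (Subread 1.4.6-p5). They deposited raw counts, with no normalization. Mice were grouped by their labels, which name no batch.

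The main test was that of the study's methods: filterByExpr (minimum count 10, minimum total 15), TMM, and the exact test of edgeR 4.0.16 in R 4.3.3, with Benjamini-Hochberg adjustment over 19863 genes and a threshold of FDR below 0.01. The SE is from the quasi-likelihood fit. RPKM used the deposited coding length. Isoform ratios used CPM with a pseudocount of 0.1. Copies were found with BLAST 2.17.0. Scripts were tested on simulated data.

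Alternatives were other tests (DESeq2 1.42.0 among them), scalings, filters and thresholds, each mouse left out, and, added after seeing the data, nuclear copies left out and a GC offset. The members and lists were chosen with earlier results of these data known. Named genes were the 13 mitochondrial genes, in each complex the highest in level and the lowest FDR in each direction, all called with an absolute LFC above 0.5, the isoform pairs, and the 2 lowest FDR of each other list. Exceptions are stated. The mouse is the replicate, and counting error adds to the spread of Cox4i2 and Ndufa4l2, with as few as 18 and 6 reads in a mouse.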

Additional observations from a re-analysis of the deposited data

Results flagged for a closer look

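Among the levels of the 82 members, the medians by complex and the shares of reads, 194 sets of 5 or 6 mice were examined, and in 8 a single mouse stood far from the others. Chance gives about 1 in 20. Germ-free mouse 1 was low in Atp5e (45.6 RPKM, next 52.1), Atp5j2 (99.97 RPKM, next 122), Cox7c (98.8 RPKM, next 111) and Sdha (72.4 RPKM, next 80.4). Humanized mouse 5 was high in Cox7c (201 RPKM, next 159.9), Ndufa6 (333 RPKM, next 250.3) and Ndufb8 (55.5 RPKM, next 44.9), and humanized mouse 3 was low in Ndufa9 (78.9 RPKM, next 98.3).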

How the results depend on the processing

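No called result changed direction under any alternative run. Results that did not pass could do so, such as the ratio of Cox6b2 to Cox6b1, which took either sign when a mouse was left out. The count of 56 higher was 58 with DESeq2, 40 with the quasi-likelihood test and 43 with the GC offset added to the quasi-likelihood test. It was 49 with no filter on low counts, 35 at FDR below 0.001, 15 under total counts and 5 under epithelial scaling. When a mouse was left out it ranged from 38 to 63. The count of 2 lower was 1 when 10 counts were required in every mouse, a filter that removes Ndufa4l2, and 2 to 2 when a mouse was left out. Under total counts the median LFC was 0.16 for all members and 0.11, 0.22, 0.26, 0.20 and 0.16 for complexes I to V, and under epithelial scaling it was 0.16, 0.11, 0.21, 0.25, 0.20 and 0.16. Both lower the median LFC of all genes to -0.18, and upper-quartile scaling lowers it to -0.03. Leaving out a mouse gave medians of 0.31 to 0.39 for all members, 0.25 to 0.34 for complex I, 0.36 to 0.45 for II, 0.38 to 0.48 for III, 0.33 to 0.43 for IV and 0.31 to 0.40 for V, and isoform differences of -1.66 to -1.38 (Cox4i2), -2.31 to -1.85 (Ndufa4l2), 0.17 to 0.24 (Atp5g1), 0.14 to 0.26 (Cox7a1) and -0.20 to 0.11 (Cox6b2). Counting each named gene once per alternative, 89 fold changes fell short of the threshold and 510 stayed on the same side of it. Mice share replicate numbers across the groups by name only. Deviations of same-numbered mice correlated between -0.13 and 0.09, and 1 of 5 correlated best with its own number. With the number as a replicate block, in which humanized mouse 6 has no partner, 9 members were called higher and 0 lower, beside 2.55% of all genes higher and 2.55% lower (7.05% and 6.53% in the same test without the block), and the members' median LFC was 0.34. Leaving the mitochondrial rows out of library sizes changes nothing, because they are at 0, and gave no separate values. Counts of mitochondrial genes were not tested. Depth limits the statements on Cox4i2, Ndufa4l2 and Cox6b2, which had 6 to 194 reads in a mouse.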
